A study of Mus musculus with 21 samples.

Results

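The solute carriers described here move bicarbonate (Slc4), calcium against sodium (Slc8), protons against sodium (Slc9), chloride with cations (Slc12), phosphate (Slc20 and Slc34), anions (Slc26), zinc and manganese (Slc30 and Slc39) and iron (Slc40) across membranes. They were chosen by gene symbol, as every gene of these 10 families with a probe set annotated to that gene alone, and each gene was read through its probe set with the highest mean over the sorted arrays. This gave 70 of the 18194 genes on the array that have such a probe set. Of these, 67 are carriers and 3 share the symbol pattern without being carriers: Slc9a3r1 and Slc9a3r2, which encode the scaffold proteins NHERF1 and NHERF2, and Slc4a1ap, named for its binding to a bicarbonate carrier. A test was possible for 49 of the 70, of which 46 are carriers, because the other 21 were too dim. A gene could also enter the test by being bright in only 1 group, so counts among the 49 do not describe all 70.

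RNA came from sorted small intestinal cells of mice, TdTomato-positive and labelled Mist1+, on 20 arrays, and from whole intestine (labelled as villi under cell type) on 1 array. The sorted cells were divided by CD24, a surface protein, into CD24hi and CD24lo fractions, each with 2 arrays for every condition. The conditions were Lgr5-ablated, irradiated with 10 Gy, doxorubicin-treated (a drug that damages DNA), NICD-expressing and untreated. Lgr5 marks intestinal stem cells, and the titles of the Lgr5-ablated samples name the treatment as DT. NICD is the usual abbreviation for the Notch intracellular domain, not spelled out in the labels. The labels state neither strain, age, sex, the alleles behind TdTomato, ablation or NICD, the time after treatment nor whether replicates were separate animals, so p-values measure the spread between these arrays only, which may be technical.

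Levels are log2(signal + 16), so that a difference of 1 is a doubling of signal for a bright gene, and folds of dim genes are understated. Median signal on the sorted arrays was 101 to 158, where the level of a gene at the array median was 6.87 to 7.45. Bhlha15, the gene that encodes Mist1, was at 10.29 to 12.21 in CD24hi arrays and at 7.83 to 9.41 in CD24lo arrays, against 5.68 in whole intestine. Cd24a was at 13.83 to 14.73 in CD24hi arrays and at 12.95 to 13.55 in CD24lo arrays. CD24hi NICD replicate 2 differed from the others technically: its cre control signal was 75343, where the other 19 sorted arrays had 22819 to 48833. The calls of NICD CD24hi cells are also given without it, but ranges, averages and other values that include it are not all repeated. In RNA pooled from many cells, fewer cells of a type and less RNA per cell cannot be told apart.

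An intestinal crypt secretes chloride and bicarbonate and a villus absorbs sodium, chloride, phosphate, zinc and iron. Secreting cells load chloride through the basolateral cotransporter NKCC1 (Slc12a2) and release it through the channel CFTR. Absorbing cells exchange sodium for protons through NHE3 (Slc9a3) and chloride for bicarbonate through DRA (Slc26a3) at the brush border. Zinc enters the cytosol through ZIP proteins (Slc39) and leaves it, to vesicles or across the plasma membrane, through ZnT proteins (Slc30), and ferroportin (Slc40a1) is the exporter of iron. Cells sense zinc through MTF1, a transcription factor that binds metal response elements in the promoters of metallothionein genes and of Slc30a1.

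Promoter sequences are shown for 3 ZnT genes whose levels differed between the fractions in different directions: Slc30a2, higher in CD24hi cells, and Slc30a1 and Slc30a10, lower there. They are RefSeq promoter windows of GRCm38.p6, all on the + strand, from 250 bases before to 50 bases after the start annotated for the window. This annotated start need not be the start of the gene. Capitals mark matches to the core of the metal response element, searched as TGCACNC and TGCGCNC on both strands.
Slc30a1, chr1:191906531-191906830: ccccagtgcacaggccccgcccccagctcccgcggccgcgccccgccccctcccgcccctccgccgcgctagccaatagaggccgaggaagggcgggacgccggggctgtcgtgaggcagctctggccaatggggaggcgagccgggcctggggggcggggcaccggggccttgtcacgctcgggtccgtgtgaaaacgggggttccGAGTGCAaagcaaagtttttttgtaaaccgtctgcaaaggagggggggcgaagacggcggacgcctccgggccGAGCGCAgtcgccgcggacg
Slc30a2, chr4:134343216-134343515: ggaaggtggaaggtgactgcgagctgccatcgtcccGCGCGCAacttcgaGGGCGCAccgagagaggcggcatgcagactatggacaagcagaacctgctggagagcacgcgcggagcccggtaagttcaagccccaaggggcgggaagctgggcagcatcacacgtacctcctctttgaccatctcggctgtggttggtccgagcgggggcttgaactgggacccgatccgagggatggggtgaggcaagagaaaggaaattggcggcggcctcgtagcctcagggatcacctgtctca
Slc30a10, chr1:185454598-185454897: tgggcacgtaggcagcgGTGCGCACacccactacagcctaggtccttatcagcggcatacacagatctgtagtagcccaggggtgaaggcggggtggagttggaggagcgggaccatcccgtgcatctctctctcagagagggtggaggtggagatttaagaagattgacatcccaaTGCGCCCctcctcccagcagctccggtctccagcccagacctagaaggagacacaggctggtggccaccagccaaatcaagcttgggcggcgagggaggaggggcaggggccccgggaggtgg

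The Slc30a1 window held 2 matches, 43 bases before and 30 bases after the annotated start. The Slc30a1 gene itself starts at chr1:191906697, within the window and before both matches. In the Slc30a2 window the 2 matches lay 214 and 200 bases before the annotated start. The Slc30a2 gene itself starts at chr4:134343046, before this window, so both matches lie inside the gene. Slc30a10 had 3, of which those 233 and 232 bases before the start overlap on opposite strands and the other lies 73 bases before it. Of all 32851 promoter windows in the table, 25.7% held at least 1 match, against 26 of the 70 windows found for 55 members (37.1%) and 12 of the 25 windows found for 20 zinc carriers (48%). Over 1 match was held by 7.11% of all windows. Other ZnT genes that differed between the fractions are not shown. Slc30a4, lower in CD24hi cells, had 3 matches and Slc30a6, higher there, had 0. A match is a run of letters and was not tested as a binding site.

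Untreated CD24hi cells had more RNA of the vesicular zinc transporter Slc30a2, of the zinc importers Slc39a10 and Slc39a6 and of the chloride loader Slc12a2 than untreated CD24lo cells, by 2.41, 1.84, 1.51 and 0.98 on the log2 scale. They had less of the brush border anion exchangers Slc26a3 (-2.29) and Slc26a6 (-2.36), of the sodium proton exchanger Slc9a3 (-1.84), of the phosphate carrier Slc34a2 (-2.51) and of the zinc importer Slc39a4 (-1.25). In limma's test with Benjamini-Hochberg adjustment over 11854 genes at 0.05, 15 of 49 members passed (30.6%), 6 higher and 9 lower in CD24hi, where 14.4% of all genes passed, 7.51% higher and 6.87% lower. Among these members Slc34a2, Slc9a7 and Slc30a10 were above the array median only in the fraction where they were higher. They entered the test through that fraction, so the share of members is not independent of the filter. The members' median difference was -0.02, against 0.05 over all genes.

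Averaged over the 5 conditions, 31 of 49 members passed (63.3%), 14 higher and 17 lower in CD24hi cells. Of all genes 46.6% passed this comparison, 27.4% higher and 19.2% lower, and the members' median was 0.04 against 0.07. Among carriers, 6 of 13 tested ZIP genes were higher and 2 lower, 2 of 8 ZnT genes higher and 3 lower, 0 of 5 Slc26 genes higher and 3 lower, and 1 of 6 Slc4 genes higher and 3 lower. Slc9 had 2 higher and 2 lower of 5, Slc12 1 and 1 of 5, and Slc20 1 higher of 2, while the only tested genes of Slc34 and Slc40 were both lower. Of the 31, 5 members (Slc4a8, Slc9a7, Slc4a10, Slc30a10 and Slc34a2) were above the array median only in the fraction where they were higher, and had passed the filter through it. For the 16 of these 31 members with another probe set bright enough to test, all 28 such probe sets gave the same sign and passed on their own.

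**Figure D1:**
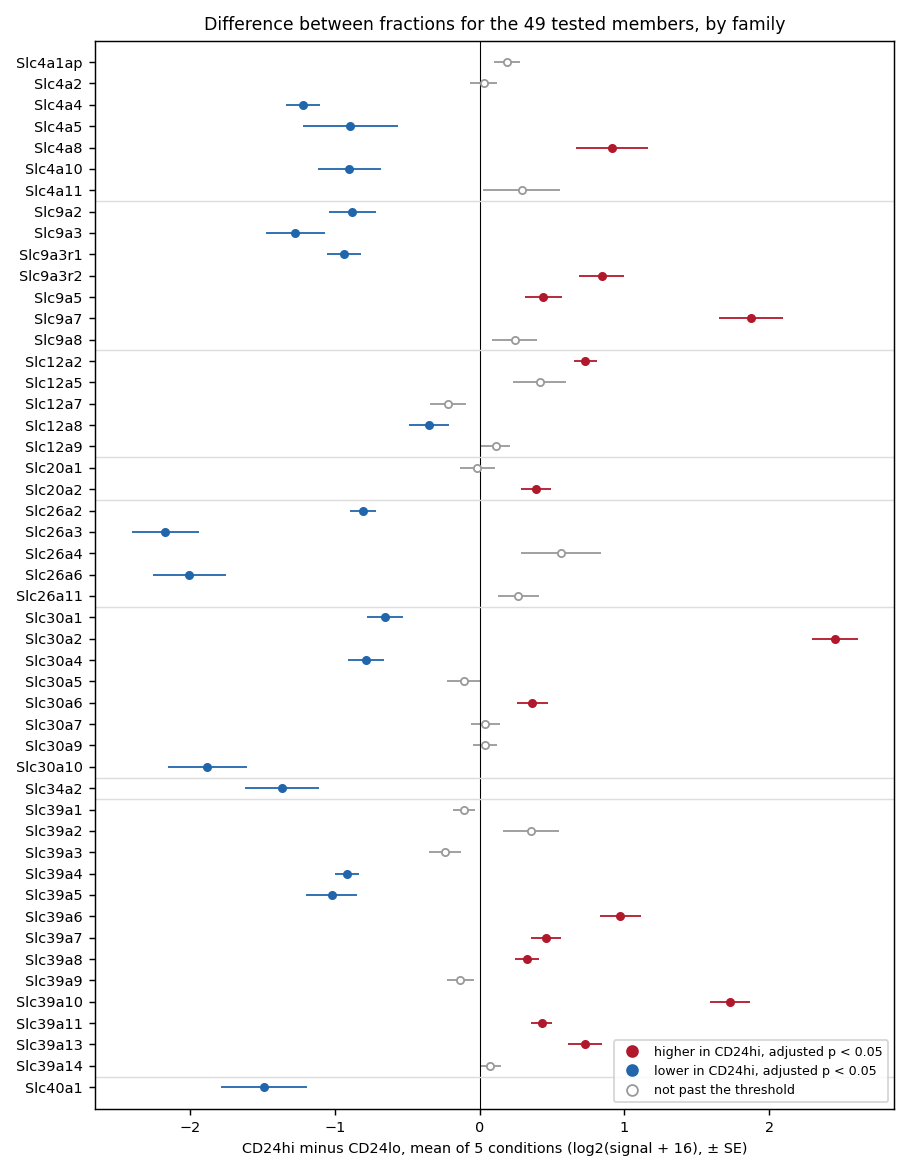
Difference in log2(signal + 16) between CD24hi and CD24lo cells (x axis, mean of the 5 conditions, bars ± SE, 10 arrays per fraction) for each of the 49 tested members, grouped by family. Filled points passed adjusted p 0.05; Slc30a2 lies farthest to the right at 2.46 and Slc26a3 farthest to the left at -2.17.

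Slc30a2 encodes ZnT2, which loads zinc into secretory vesicles, Paneth cell granules among them. Its level was 11.48 and 11.58 in untreated CD24hi arrays against 9.39 and 8.85 in untreated CD24lo arrays. Over all conditions it was 10.19 to 11.76 (median 11.31) in 10 CD24hi arrays and 7.70 to 9.58 (median 8.79) in 10 CD24lo arrays, so the fractions did not overlap. The averaged difference was 2.46 ± 0.16 (SE), adjusted p = 2.79e-09, and it lay between 1.88 (doxorubicin) and 2.79 (irradiated) in single conditions. Whole intestine read 11.25, within the CD24hi range.

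Slc39a10 encodes ZIP10, an importer at the plasma membrane, and was the other member whose fractions did not overlap. It read 10.42 and 11.12 in untreated CD24hi arrays and 8.75 and 9.11 in untreated CD24lo arrays, and 10.31 to 11.40 against 7.96 to 10.11 over all conditions. The averaged difference was 1.73 ± 0.14, adjusted p = 4.2e-08. In NICD cells the fractions were closest, 0.46 apart, and after doxorubicin farthest, 2.82 apart. Slc39a6, whose protein ZIP6 pairs with ZIP10, was at 9.23 and 8.87 in untreated CD24hi arrays against 7.64 and 7.43 in untreated CD24lo arrays, with an averaged difference of 0.97 ± 0.14, adjusted p = 2.73e-05.

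Of the other ZIP genes, Slc39a13 was higher in CD24hi by 0.73 ± 0.12, Slc39a7, which releases zinc from the endoplasmic reticulum, by 0.46 ± 0.10, Slc39a11 by 0.43 ± 0.07, and Slc39a8, an importer of zinc and manganese, by 0.33 ± 0.08, each averaged over conditions. The ZIP genes of the absorbing cell went the other way. Slc39a4 (ZIP4), which takes up dietary zinc at the apical membrane, read 9.68 and 10.01 in untreated CD24hi arrays against 11.22 and 10.98 in untreated CD24lo arrays, and was lower on average by 0.92 (± 0.08, adjusted p = 1.49e-07). Slc39a5 (ZIP5), which sits on the basolateral side, read 10.38 and 10.16 against 11.43 and 11.09 and was lower on average, at -1.02 ± 0.18. In no condition was the CD24hi mean of either above the CD24lo mean.

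Among the ZnT genes, Slc30a10, whose protein exports manganese, was lower in CD24hi, at -1.88 ± 0.27 on average, with 4.94 to 7.26 in CD24hi arrays and 6.60 to 9.80 in CD24lo arrays, which overlap. Slc30a1 (ZnT1), the zinc exporter of the plasma membrane, read 8.84 and 8.52 in untreated CD24hi arrays and 10.08 and 9.22 in untreated CD24lo arrays. Its averaged difference was -0.65 ± 0.12, but in single conditions it was -1.34 after doxorubicin, -1.19 after irradiation, 0.01 after Lgr5 ablation and 0.22 with NICD. Slc30a4, a vesicular transporter, was lower by 0.78 ± 0.12 on average and Slc30a6, which works in the early secretory pathway as a partner of Slc30a5, was higher by 0.36 ± 0.11. The call of Slc30a6 was lost without the NICD condition, adjusted p = 0.089. Slc30a5, Slc30a7 and Slc30a9 differed by -0.11, 0.04 and 0.04 and did not pass.

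The exporter of iron, Slc40a1, was also lower in CD24hi cells. It read 7.68 and 6.80 in untreated CD24hi arrays and 9.51 and 7.69 in untreated CD24lo arrays, a spread too wide for a call in that comparison alone, at -1.36 ± 0.66, adjusted p = 0.195. Averaged over conditions the difference was -1.49 ± 0.30, adjusted p = 5.86e-04, with the CD24hi mean below the CD24lo mean in each. Slc40a1 ran from 6.80 to 9.72 in CD24hi arrays and from 7.54 to 12.35 in CD24lo arrays.

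On average over conditions, Slc26a3 and Slc26a6 were the tested members farthest below 0. Slc26a3 (DRA) was at 10.32 and 8.81 in untreated CD24hi arrays against 12.16 and 11.55 in untreated CD24lo arrays, and Slc26a6 (PAT1), another chloride and bicarbonate exchanger of the brush border, at 8.43 and 7.50 against 10.89 and 9.76. Averaged over conditions Slc26a3 differed by -2.17 ± 0.23 (adjusted p = 1.11e-06), and Slc26a6 was 4.01-fold lower (adjusted p = 7.28e-06). In every condition all CD24hi arrays lay below the CD24lo arrays of that condition for both genes, and the gap was smallest with NICD, at -1.35 and -0.87. Slc26a2, a sulfate carrier, followed at -0.81 ± 0.09, with 10.53 to 11.81 in CD24hi arrays against 11.22 to 12.58 in CD24lo arrays. Slc26a4 (pendrin) and Slc26a11 did not pass, at 0.56 ± 0.28 and 0.27 ± 0.14.

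The bicarbonate carrier Slc4a4 (NBCe1), which brings sodium and bicarbonate in at the basolateral membrane, was at 10.54 and 10.14 in untreated CD24hi arrays against 11.23 and 10.99 in untreated CD24lo arrays. Averaged over conditions it was lower by 1.22 (± 0.12, adjusted p = 3.52e-07). Slc4a10 and Slc4a5, both sodium-coupled bicarbonate carriers, were lower at -0.90 ± 0.22 and -0.89 ± 0.33, and Slc4a8, of the same kind, was higher at 0.92 ± 0.25. Slc4a8 and Slc4a10 are dim, with mean levels in the fractions of 5.78 to 6.83. Slc4a5 was brighter, with means of 7.26 in CD24hi and 8.15 in CD24lo, and above the array median on 13 sorted arrays. The call of Slc4a5 was lost in 12 of 29 alternative settings, with adjusted p up to 0.0816. Slc4a2 (AE2), the basolateral chloride and bicarbonate exchanger, did not pass, at 0.03 ± 0.09.

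Of the 5 tested sodium proton exchangers, 2 were higher and 2 lower. Slc9a3 (NHE3) was at 7.49 and 6.95 in untreated CD24hi arrays against 9.39 and 8.73 in untreated CD24lo arrays, and its averaged difference was -1.27 ± 0.20, adjusted p = 7.54e-05. Slc9a2, another exchanger of the apical membrane, differed by -0.88 ± 0.16. Slc9a7, an exchanger of the trans-Golgi network, was higher at 1.88 ± 0.22, with 7.46 and 7.04 against 4.86 and 5.31 in untreated cells, of which both CD24lo values lie below every sorted array's median. Slc9a5 was higher at 0.44 ± 0.13, and Slc9a8 did not pass at 0.24 ± 0.16. With NICD the differences of Slc9a3, Slc9a2 and Slc9a7 had the opposite sign to the other conditions, at 0.14, 0.31 and -0.30. For Slc9a3 and Slc9a7 this rests on CD24hi NICD replicate 2, the array that differed technically. CD24hi NICD replicate 1 alone, against the CD24lo NICD mean, kept the sign of the other conditions for these genes. For Slc9a2 both CD24hi NICD arrays lay above both CD24lo NICD arrays. The scaffolds that bind NHE3 also parted, Slc9a3r2 higher by 0.84 ± 0.15 and Slc9a3r1 lower, at -0.94 ± 0.12, in CD24hi cells.

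Slc12a2 (NKCC1), the chloride loader of secreting cells, read 13.36 and 13.28 in untreated CD24hi arrays against 12.40 and 12.28 in untreated CD24lo arrays, and 12.98 to 13.58 against 11.66 to 13.55 over all conditions. The averaged difference was 0.73 ± 0.08, adjusted p = 1.45e-06, with 1.67 after doxorubicin and 0.04 with NICD at its ends. Slc12a7 (KCC4), which moves potassium and chloride out of the cell, did not pass on average, at -0.22 ± 0.12, but was lower by 0.58 (adjusted p = 0.00231) when NICD was left out. Slc12a8 was lower at -0.35 ± 0.14, adjusted p = 0.0446, a call lost in 15 of 29 alternative settings.

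Of the phosphate carriers, Slc34a2, the apical cotransporter of the small intestine, was at 5.44 and 5.07 in untreated CD24hi arrays against 7.16 and 8.38 in untreated CD24lo arrays. It differed by -1.36 ± 0.25 on average, adjusted p = 3.32e-04, and by -2.51 in untreated cells, the widest of its conditions. Slc34a2 was above the array median on 3 CD24lo arrays and on 0 CD24hi arrays, so it entered the test through the fraction where it is high, and the stricter filter removes it. Slc20a2 (PiT2) was higher by 0.39 ± 0.10, and Slc20a1 (PiT1) did not pass at -0.02 ± 0.12, with 9.47 and 9.91 in untreated CD24hi arrays against 9.33 and 9.54 in untreated CD24lo arrays.

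**Figure D2:**
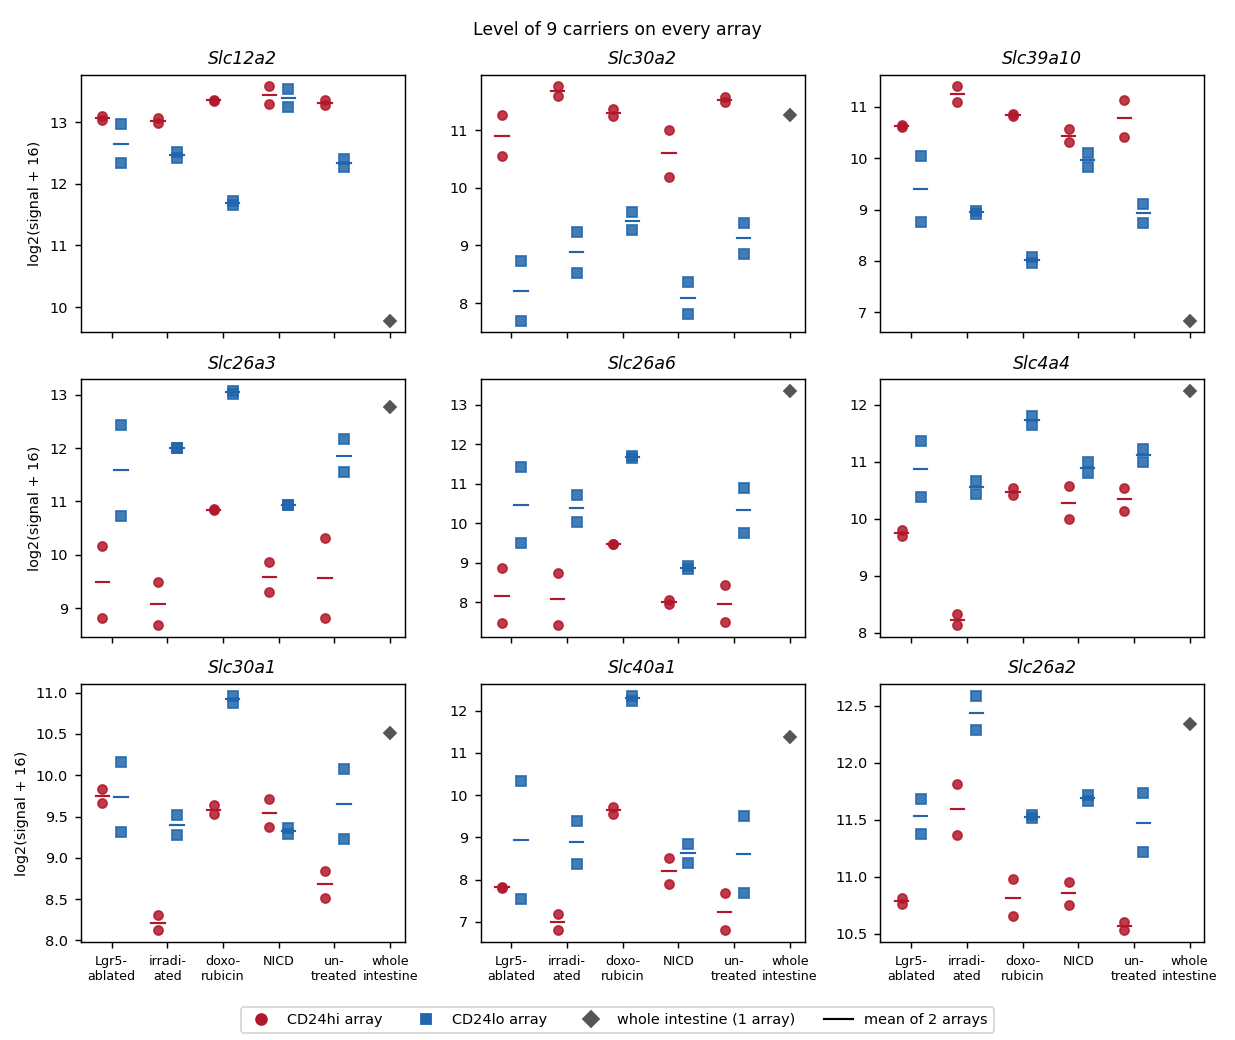
Level of 9 carriers on every array, as log2(signal + 16) on the y axis, by condition on the x axis, with CD24hi as circles, CD24lo as squares, the 1 whole intestine array as a diamond and bars at the mean of 2 arrays. Slc30a2 and Slc39a10 show no overlap between fractions, Slc40a1 is highest in CD24lo doxorubicin arrays (12.24 and 12.35), and Slc4a4 is lowest in CD24hi irradiated arrays (8.13 and 8.32).

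The calls in untreated mice rest on 4 arrays. Slc12a2, Slc30a2, Slc39a4, Slc39a6 and Slc39a10 kept theirs in all 13 alternative settings, while 6 members passed without CD24lo untreated replicate 1 and 7 without CD24hi untreated replicate 2. Slc26a3, Slc26a6 and Slc9a3 were lost in both of these fits, with adjusted p up to 0.118, 0.122 and 0.115, and Slc30a10 (adjusted p = 0.0487) in 8 of 13 settings.

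Genes of known cell types also differed between the fractions. All 9 measured markers of absorptive enterocytes were lower in CD24hi cells, with a mean level of 10.35 to 12.16 in CD24hi arrays and 11.40 to 13.81 in CD24lo arrays, against 14.60 in whole intestine. Higher in CD24hi cells were 6 of 7 Paneth cell markers (13.38 to 14.75 against 11.56 to 12.94, 10.17 in whole intestine), 6 of 6 tuft cell markers (7.37 to 10.97 against 5.94 to 6.71) and 6 of 6 stem cell markers (10.15 to 11.63 against 7.79 to 10.43). The Paneth cell markers include Cd24a, the gene of the protein used for the sort. Its difference was set by the sort and enters their mean level. Of the enteroendocrine markers 5 of 8 were higher and 0 lower (8.79 to 12.53 against 8.50 to 10.17), and of the goblet markers 3 of 8 were lower and 0 higher (12.87 to 13.69 against 13.25 to 13.97). Their part in the carrier differences was not tested.

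The array of whole intestine, which has no replicate and entered no test, read above every sorted array for 9 of the 17 members that were lower in CD24hi cells and for 0 of the 14 that were higher. It read below every sorted array for 6 of the 14 and for 1 of the 17, Slc12a8. The median signal of the whole intestine array was 62.7, against 101 to 158 on the sorted arrays. What this adds to the level differences was not tested. The level of Slc34a2 was 11.61 in whole intestine, against 4.11 to 6.31 in CD24hi and 5.78 to 8.38 in CD24lo arrays. For Slc26a6 these values were 13.34, 7.41 to 9.48 and 8.84 to 11.70. Slc12a2 read 9.78, Slc39a10 6.84 and Slc39a8 8.42 in whole intestine, each below all sorted arrays. Of the 14 members higher in CD24hi, 3 read within their CD24hi range in whole intestine and above most sorted arrays: Slc20a2 at 10.89 (above 19 of 20), Slc30a6 at 11.23 (above 16) and Slc30a2 at 11.25 (above 14). For Slc20a2 the only sorted array above whole intestine was CD24hi NICD replicate 2 (11.52), the array that differed technically. Without that array, whole intestine would read above every sorted array for Slc20a2.

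**Figure D3:**
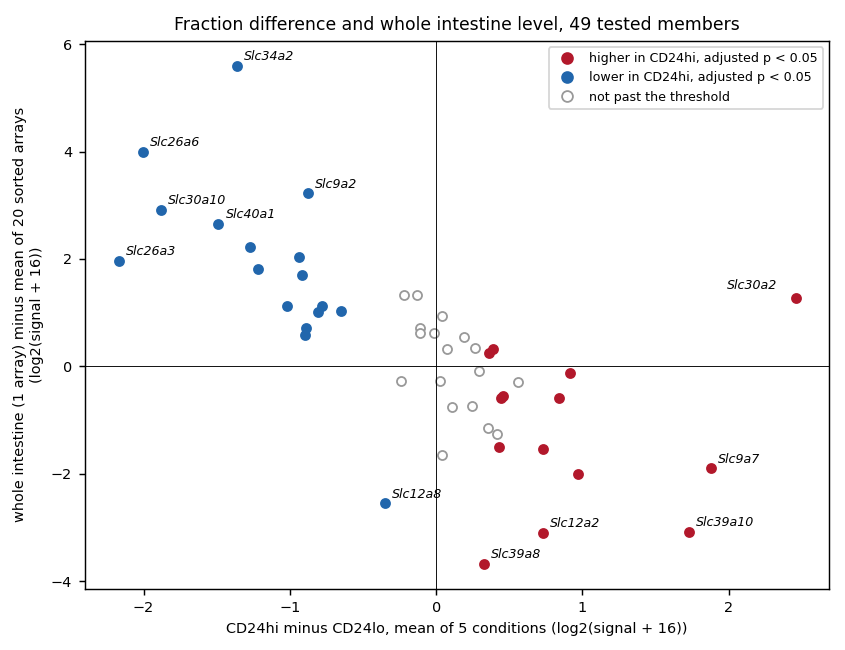
Averaged fraction difference (x axis, CD24hi minus CD24lo) against whole intestine minus the mean of the 20 sorted arrays (y axis), both in log2(signal + 16), for the 49 tested members. Most members lower in CD24hi lie above 0 on the y axis, with Slc12a8 below it, and Slc30a2 lies at the upper right.

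Genes that work with these carriers were read as whole lists, beside the 46.6% of all genes called in this comparison (27.4% higher, 19.2% lower). Of 16 tested partners of chloride and bicarbonate secretion, 4 were higher and 6 lower in CD24hi cells on average. Guca2b, the gene of the secretagogue peptide uroguanylin, was higher by 1.11 ± 0.12, the potassium channel subunit gene Kcne3 by 0.87 ± 0.08 and the carbonic anhydrase gene Car12 by 0.73 ± 0.13, while Car4 differed by -2.26 ± 0.30, Car2 by -0.83 ± 0.21 and Cftr by -0.56 ± 0.15. Of 14 metal partners, 4 were higher and 4 lower. Cybrd1, a ferric reductase, was higher by 3.15 ± 0.15, the copper pump gene Atp7b by 1.17 ± 0.19, and the metallothionein genes Mt1 and Mt2 by 0.46 ± 0.13 and 0.57 ± 0.20, whereas Heph, which oxidises the iron that ferroportin exports, differed by -1.51 ± 0.14. Of 5 calcium and phosphate partners 4 were lower, among them Pdzk1, a scaffold of brush border carriers, at -0.75 ± 0.11.

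Each treatment was set against untreated cells of the same fraction, and comparisons within a fraction share the 2 untreated arrays. In these 8 comparisons 21 of 49 members passed at least once, where 33.3% of all genes did. Among the 21, Slc4a11, Slc4a8, Slc26a4 and Slc39a2 entered the test mostly through the treated arrays where they were called higher. The share of members is therefore not independent of the filter.

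**Figure D4:**
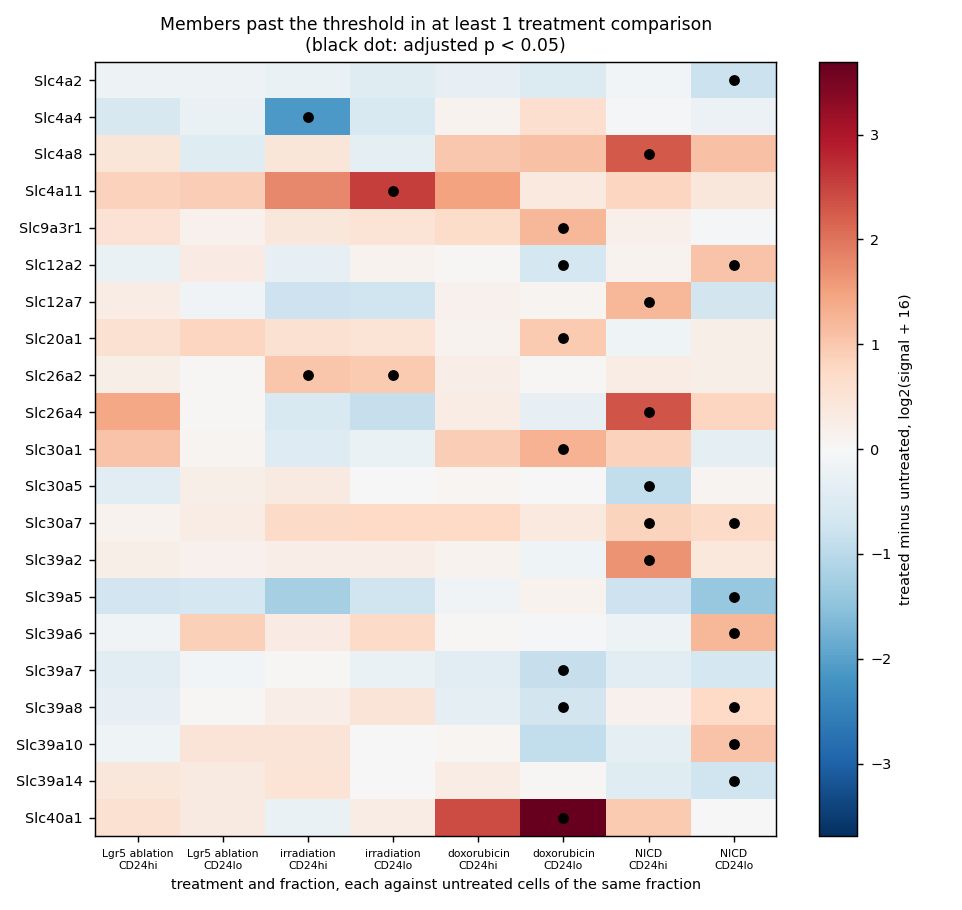
Treated minus untreated difference in log2(signal + 16) (colour, red higher and blue lower) for the 21 members past adjusted p 0.05 in at least 1 treatment comparison, with a black dot where they passed. Columns are the 4 treatments, each in CD24hi and CD24lo cells; the darkest red is Slc40a1 after doxorubicin in CD24lo (3.69) and the darkest blue Slc4a4 after irradiation in CD24hi (-2.11).

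After irradiation the sulfate carrier Slc26a2 rose in both fractions. It read 11.81 and 11.37 in irradiated CD24hi arrays against 10.60 and 10.53 in untreated CD24hi arrays, a difference of 1.02 ± 0.20, adjusted p = 0.00509. In CD24lo cells it read 12.58 and 12.28 when irradiated against 11.73 and 11.22 untreated, a difference of 0.96 ± 0.20, adjusted p = 0.0124. Neither pair of groups overlapped, and both other probe sets of Slc26a2 passed in both fractions, at 0.92 and 0.93 in CD24hi and 1.13 and 1.03 in CD24lo. The CD24lo call was lost without CD24lo untreated replicate 2 (0.70, adjusted p = 0.166) or CD24lo irradiated replicate 1 (0.81, adjusted p = 0.17), and the CD24hi call without CD24hi untreated replicate 2 (0.99, adjusted p = 0.0503) or CD24hi irradiated replicate 1 (0.80, adjusted p = 0.136).

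Slc4a4 fell in irradiated CD24hi cells, to 8.13 and 8.32 against 10.54 and 10.14 in untreated CD24hi cells. The difference was -2.11 ± 0.26, adjusted p = 1.51e-04, and it passed in all 13 alternative settings. Of its 3 other bright probe sets, 2 passed, at -1.72 and -1.34. In CD24lo cells Slc4a4 read 10.67 and 10.43 when irradiated against 11.23 and 10.99 untreated, at -0.56 ± 0.26 short of the threshold. The difference between the effects in the fractions, -1.55 ± 0.37, did not pass, adjusted p = 0.717.

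Slc4a11, a divergent member of the bicarbonate carrier family, was higher in irradiated CD24lo cells, with 8.22 and 7.34 against 4.45 and 5.99 in untreated CD24lo cells, a difference of 2.56 ± 0.60 and adjusted p = 0.0227. Slc4a11 was above the array median on 3 irradiated arrays alone, so it entered the test through the condition where it is high, and the stricter filter removes it. The call was lost without CD24lo untreated replicate 1 (1.80, adjusted p = 0.148), CD24lo irradiated replicate 1 (2.12, adjusted p = 0.249) or CD24lo irradiated replicate 2 (3.01, adjusted p = 0.0533). In CD24hi cells the difference was 1.76 ± 0.60, adjusted p = 0.124. In all, 2 of 49 members passed in CD24hi (4.08%), 1 higher and 1 lower, where 4.44% of all genes did, 1.11% higher and 3.33% lower. In CD24lo 2 passed, both higher, where 4.02% of all genes did, 1.58% higher and 2.45% lower. These shares are near those of all genes.

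Among the secretion partners, 6 of 16 fell in irradiated CD24hi cells and 4 of 16 in irradiated CD24lo cells, and 0 rose in either. Of all genes 3.33% fell and 1.11% rose in CD24hi, and 2.45% fell and 1.58% rose in CD24lo. Kcnq1, a basolateral potassium channel gene, differed by -2.11 ± 0.26 in CD24hi and -1.05 ± 0.26 in CD24lo, Car4 by -2.86 ± 0.67 and -2.53 ± 0.67, and Cftr by -1.74 ± 0.34 in CD24hi (adjusted p = 0.00448). In CD24hi Kcnq1 passed with any 1 array left out, whereas Cftr and Car4 were lost without untreated replicate 1 (-1.52 and -2.31) or irradiated replicate 1 (-1.02 and -2.11), with adjusted p up to 0.101 and 0.322. In CD24lo Car4 was lost without any 1 of its 4 arrays and Kcnq1 without any but irradiated replicate 2, with adjusted p up to 0.317 for both. Slc12a2, the loader of chloride, did not pass in either fraction. Stem cell markers were lower too, 3 of 6 in irradiated CD24hi cells and 4 of 6 in irradiated CD24lo cells, and their part in these changes was not tested.

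Doxorubicin was followed by the largest change of any member, in the iron exporter. Slc40a1 read 12.24 and 12.35 in doxorubicin CD24lo arrays against 9.51 and 7.69 in untreated CD24lo arrays, a difference of 3.69 ± 0.66, adjusted p = 0.00296. The treated arrays exceeded all other sorted arrays and the whole intestine array (11.38), and the other probe set gave 3.99. The call held in all 13 alternative settings, with the difference between 2.79 and 4.60 when 1 of the 4 arrays was left out. In CD24hi cells Slc40a1 read 9.56 and 9.72 after doxorubicin against 7.68 and 6.80 untreated, with no overlap, but 2.40 ± 0.66 did not pass, adjusted p = 0.104.

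The zinc exporter Slc30a1 rose in doxorubicin CD24lo cells, to 10.88 and 10.96 against 10.08 and 9.22 in untreated CD24lo cells, a difference of 1.27 ± 0.28 and adjusted p = 0.00789. Without CD24lo untreated replicate 2 it was 0.85, adjusted p = 0.119. Slc20a1, the phosphate carrier PiT1, was higher by 0.98 ± 0.27, with 10.42 and 10.41 against 9.33 and 9.54, and the scaffold Slc9a3r1 by 1.22 ± 0.26. Lower were Slc39a7 (-0.86 ± 0.23), Slc39a8 (-0.67 ± 0.18) and Slc12a2, which read 11.72 and 11.66 against 12.40 and 12.28 (-0.65 ± 0.18, adjusted p = 0.0237). Both other probe sets of Slc12a2 were lower by more, at -1.24 and -1.21. The Slc12a2 call was lost in 5 of 13 alternative settings. These were quantile normalization (-0.63, adjusted p = 0.0553) and leaving out any of the CD24lo arrays compared.

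In all 7 of 49 members passed in doxorubicin CD24lo cells (14.3%), 4 higher and 3 lower, where 14.7% of all genes passed, 5.47% higher and 9.27% lower, so the share of members was near that of all genes. Without CD24lo untreated replicate 2 or doxorubicin replicate 1 only Slc40a1 passed, and without doxorubicin replicate 2 there were 2. In doxorubicin CD24hi cells 0 of 49 passed, with 8 at unadjusted p under 0.05, where 1.2% of all genes passed, 0.801% higher and 0.396% lower. No difference between the effects in the fractions passed for a member, with 3 at unadjusted p under 0.05 and 0.0337% of all genes called. Other carriers differed in both directions without passing: Slc26a3 by 1.19 ± 0.52, Slc26a6 by 1.35 ± 0.57, Slc30a10 by 1.83 ± 0.61 and Slc34a2 by -1.40 ± 0.57 (adjusted p = 0.128, 0.115, 0.0532 and 0.104). Slc30a10 passed with probe sets averaged within genes (2.05, adjusted p = 0.0173) and with a pseudocount of 64 (1.63, adjusted p = 0.0169). Slc34a2 passed as lower with a pseudocount of 64 (-1.04, adjusted p = 0.0487) and with quantile normalization (-1.69, adjusted p = 0.0462).

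Of the 14 metal partners, 3 were higher in doxorubicin CD24lo cells and 0 lower, where 5.47% and 9.27% of all genes were. Mt2 was higher by 2.22 ± 0.46 (1.31 without CD24lo untreated replicate 1, adjusted p = 0.0481, and lost without doxorubicin replicate 1, at 1.86 and adjusted p = 0.0734), the copper importer gene Slc31a1 by 1.05 ± 0.19 and Heph by 0.98 ± 0.31. The Heph call was lost without CD24lo untreated replicate 2 (0.56, adjusted p = 0.363) or either doxorubicin array. Of the calcium and phosphate partners 4 of 5 were higher, among them S100g, a calcium-binding protein of absorbing cells, at 1.90 ± 0.54, and Atp2b1, a calcium pump, at 1.26 ± 0.21. The S100g call was lost without CD24lo untreated replicate 2 (1.28, adjusted p = 0.254) or either doxorubicin array. The mean level of enterocyte markers was 13.62 and 13.81 in these arrays against 12.61 and 12.79 in untreated CD24lo arrays, with 2 of 9 markers higher past the threshold. For 4 T cell markers it was 7.96 and 8.08 against 5.64 and 6.24, with 3 higher, and 4 of 6 stem cell markers and 4 of 7 Paneth cell markers were lower. What these cell type markers contribute to the carrier values was not tested.

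With NICD, members passed the threshold in each fraction, but these calls depended on single arrays, as given below. In CD24lo cells Slc12a2 rose to 13.25 and 13.55 against 12.40 and 12.28 in untreated CD24lo cells, a difference of 1.06 ± 0.18, adjusted p = 0.00537. Untreated CD24hi arrays read 13.36 and 13.28. The zinc importers ZIP6 and ZIP10 also rose, Slc39a6 to 8.90 and 8.64 against 7.64 and 7.43 (1.24 ± 0.31) and Slc39a10 to 9.84 and 10.11 against 8.75 and 9.11 (1.04 ± 0.31). Slc39a8 rose by 0.74 ± 0.18 and Slc30a7, a zinc transporter of the Golgi, by 0.72 ± 0.22. With probe sets averaged within genes, 4 of these 5 higher calls were lost, Slc39a6 at 0.75 (adjusted p = 0.0822), Slc39a10 at 0.63 (adjusted p = 0.131), Slc39a8 at 0.49 (adjusted p = 0.0713) and Slc30a7 at 0.30 (adjusted p = 0.261). Lower were Slc39a5 (-1.40 ± 0.39), Slc4a2 (-0.81 ± 0.21) and Slc39a14 (-0.72 ± 0.16), an importer of zinc, iron and manganese.

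In all 8 of 49 members passed in NICD CD24lo cells (16.3%), 5 higher and 3 lower. Of all genes 14.4% did, 6.7% higher and 7.72% lower, so the share of members was near that of all genes. Of the 8, 5 are ZIP genes, of 13 tested. Without CD24lo NICD replicate 2 none passed, with adjusted p of the 8 between 0.138 and 0.373, and 2 passed without either untreated CD24lo array. Leaving out CD24hi NICD replicate 2, which is not in this comparison but adds to the estimate of spread, gave 14. Slc30a2, which was higher in CD24hi than in CD24lo cells throughout, read 8.37 and 7.81 in NICD CD24lo arrays against 9.39 and 8.85 in untreated ones, at -1.03 ± 0.35 short of the threshold, adjusted p = 0.0576. Enterocyte markers averaged 11.40 and 11.64 in these arrays against 12.61 and 12.79 in untreated CD24lo arrays, with 4 of 9 lower, and their part in the carrier changes was not tested.

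In NICD CD24hi cells 6 of 49 members passed (12.2%), 5 higher and 1 lower, where 6.56% of all genes did, 4.7% higher and 1.86% lower. Slc26a4, the anion exchanger pendrin, read 8.48 and 7.77 against 6.49 and 5.12 in untreated CD24hi cells (2.32 ± 0.62), Slc4a8 8.32 and 7.95 against 5.47 and 6.25 (2.27 ± 0.55), and Slc39a2, a zinc importer, 7.95 and 8.02 against 6.33 and 6.33 (1.65 ± 0.44). Slc39a2 was above the array median on these 2 NICD arrays alone, and Slc26a4 and Slc4a8 on them and 1 other array, so these 3 entered the test through the group where they are high and the share of members is no support for a rise. The stricter filter removes all 3. Slc12a7 was higher by 1.23 ± 0.27 and Slc30a7 by 0.82 ± 0.22, and Slc30a5 was lower (-0.92 ± 0.25). With probe sets averaged within genes, the Slc30a7 call was lost here too (0.39, adjusted p = 0.192). Without CD24hi NICD replicate 2, the array that stands apart, 0 of the 6 passed, at 2.68, 2.46, 1.62, 0.70, 0.43 and -0.49 in that order. Without CD24hi NICD replicate 1 there were 12, and without CD24hi untreated replicate 1 or 2 there were 1 and 0. The markers of tuft cells (6 of 6) and of enteroendocrine cells (8 of 8) were higher in NICD CD24hi cells, as was Car2 by 3.15 ± 0.46, and their part was not tested.

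Slc12a7 was the one member whose NICD effect differed between the fractions, where 2.65% of all genes did, 1.64% with the higher effect in CD24hi. It read 11.11 and 12.17 in NICD CD24hi arrays against 10.41 and 10.41 in untreated CD24hi arrays, and 10.18 and 10.65 in NICD CD24lo arrays against 10.88 and 11.31 in untreated CD24lo arrays. The difference between the effects was 1.90 ± 0.38, adjusted p = 0.0324, and 1.43 on the other probe set. It became 1.38, adjusted p = 0.179, without CD24hi NICD replicate 2 and was also lost without CD24lo NICD replicate 2, CD24lo untreated replicate 2 or either untreated CD24hi array, with adjusted p between 0.0685 and 0.101. For Slc12a2 the difference between the effects was -0.94 ± 0.25, adjusted p = 0.0549.

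After Lgr5 ablation no member passed in either fraction, with 8 of 49 at unadjusted p under 0.05 in CD24hi and 5 in CD24lo, where 0.852% and 0.236% of all genes passed limma's test, the CD24lo share including 0.0928% higher. Nor did any differ between the fractions in this effect, with 4 at unadjusted p under 0.05 and 0.0169% of all genes called. Slc30a1 came nearest, at 9.66 and 9.83 in Lgr5-ablated CD24hi arrays against 8.84 and 8.52 in untreated CD24hi arrays (1.06 ± 0.28, adjusted p = 0.0991), and it passed when its probe sets were averaged (1.01, adjusted p = 0.0389). The CD24lo Lgr5-ablated arrays lay far apart for several absorptive carriers, such as Slc40a1 at 7.54 and 10.34, Slc26a3 at 10.74 and 12.44 and Slc26a6 at 9.49 and 11.42. Enterocyte markers averaged 11.91 and 13.04 on the same arrays, in the same order. Of the partners, Gucy2c, the receptor of guanylin peptides, was higher by 1.03 ± 0.21 in CD24hi and 1.12 ± 0.21 in CD24lo. Leaving out 1 array lost the CD24hi call without untreated replicate 2 (0.84, adjusted p = 0.297) or Lgr5-ablated replicate 1 (0.94, adjusted p = 0.223), and the CD24lo call without any of its arrays but Lgr5-ablated replicate 1 (adjusted p up to 0.217). For irradiation, too, no member's effect differed between the fractions, with 2 at unadjusted p under 0.05 and 0.00844% of all genes called.

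The 21 members without a test had mean levels of 4.48 to 6.45 and no array above 7.68. They are the bicarbonate carriers Slc4a1, Slc4a3 and Slc4a9, all 3 sodium calcium exchangers Slc8a1, Slc8a2 and Slc8a3, the proton exchangers Slc9a4 and Slc9a9, the chloride cotransporters Slc12a1, Slc12a3 and Slc12a4, the anion exchangers Slc26a1, Slc26a5, Slc26a7, Slc26a8 and Slc26a10, the zinc transporters Slc30a3, Slc30a8 and Slc39a12 and the phosphate carriers Slc34a1 and Slc34a3. Their mean levels lie below every sorted array's median, and no detection calls were used, so whether they exceed background was not tested.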

How the data were processed

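Affymetrix arrays of 20 sorted samples and 1 whole intestine were used, grouped as the labels give. The deposited values are linear signal intensity for 45101 probe sets, which the authors computed with MAS5 (no version given, per the submitters' processing notes), and the mean between the lowest and highest 2 percent is 500 on every array. No detection calls or probe coordinates were used, and 0 columns were left unmapped. For arrays their number, 2 per group, limits the precision; replicates correlated at 0.942 to 0.985 across genes, and 0 pairs of arrays were identical.

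Intensity was transformed as log2(signal + 16). Of the probe sets, 34958 had 1 symbol, 932 several (1 of them with a member's symbol, left out) and 9211 none. Probe sets above the array median in at least 2 of 20 sorted arrays were kept (22531), and the brightest per gene gave 11854 genes. The 70 members had 137 probe sets, and all 49 tested members were read through the probe set of the membership rule. Limma 3.58.1 in R 4.3.3 fitted 10 group means (10 residual degrees of freedom, moderated variances with trend) for 14 comparisons, two-sided, with Benjamini-Hochberg adjustment over all genes of a comparison at 0.05. The fit was tested on simulated data. Figures used Python 3.11.15 and matplotlib 3.10.9.

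Replicate numbers were not used as pairs: residuals of arrays sharing a number correlated at -0.41 to 0.38 (median -0.02, 45 pairs). As alternatives the pseudocount was set to 1 or 64, arrays were quantile normalized or centred on their upper quartile, the dimness filter was dropped or tightened to percentile 60 in 4 arrays or more, probe sets were averaged within genes, replicate number was a block, and each array was left out; averaging without NICD was added after seeing the data. The members, the partner lists, the markers and the genes named were chosen with earlier results of these data known. Named were members past the threshold, 12 fixed carriers (Slc4a4, Slc9a3, Slc12a2, Slc20a1, Slc26a3, Slc26a6, Slc30a1, Slc30a2, Slc34a2, Slc39a4, Slc39a5 and Slc40a1), and some short of it, singled out after their values were seen.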

Additional observations from a re-analysis of the deposited data

Results flagged for a closer look

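The NICD effect on Slc12a7 was 1.90 higher on the log2 scale in CD24hi than in CD24lo cells (interaction test of limma, adjusted p = 0.0324 over 11854 genes). It is listed because the test of the difference between the fractions itself passed. The call was lost in 5 of 16 alternative settings, among them the fit without CD24hi NICD replicate 2, the array that stands apart. Both CD24hi NICD arrays lay above both untreated CD24hi arrays, and both CD24lo NICD arrays lay below both untreated CD24lo arrays.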

How the results depend on the processing

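No member that passed changed sign in any setting. The number of members past the threshold moved by over 1.5 times in few settings that kept all arrays. With a pseudocount of 1, NICD in CD24hi gave 3 in place of 6. With a pseudocount of 64, and likewise with quantile normalization, the difference of NICD effects gave 2 in place of 1, Slc12a2 being added. With the stricter filter, irradiation in CD24lo gave 1, NICD in CD24hi 3 and the difference of NICD effects 2, and with probe sets averaged within genes, Lgr5 ablation in CD24hi gave 1 and NICD in CD24lo 5. The stricter filter removes dim members, and other causes were not tested. The replicate block gave 15 for untreated and 31 for averaged fractions and 9 for NICD in CD24lo, within 1.5 times of the reported counts as in all other comparisons. Averaging without NICD gave 32, of which 30 were among the 31.

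When 1 array was left out, counts ran from 6 to 17 for untreated fractions and 29 to 32 for averaged fractions. For Lgr5 ablation they ran from 0 to 1 in CD24lo and stayed at 0 in CD24hi, for irradiation from 1 to 4 in CD24hi and 0 to 4 in CD24lo, for doxorubicin from 0 to 1 in CD24hi and 1 to 8 in CD24lo. For NICD they ran from 0 to 12 in CD24hi, 0 to 14 in CD24lo and 0 to 12 for the difference between the effects. The differences of the other 3 effects stayed at 0. Whether dim members exceed background was not tested.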
